A study of Mus musculus with 49 samples.

Results

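The phase II conjugation enzymes are the transferases that attach a glucuronic acid, a glutathione or a sulfate to drugs, hormones and bile pigments. They were taken by gene symbol: the UDP-glucuronosyltransferases (UGTs, symbols starting with Ugt1a, Ugt2a, Ugt2b or Ugt3a), the cytosolic glutathione S-transferases (GSTs, Gsta, Gstk, Gstm, Gsto, Gstp, Gstt and Gstz), the microsomal Mgst genes and the sulfotransferases (SULTs, Sult). The rule used names of protein-coding genes and no measured value, and it found 67 of the 46078 genes in the table. There were 21 UGTs, 22 cytosolic GSTs, 3 Mgst genes and 21 SULTs. Of these, 61 had at least 1 count, 23 had fewer than 100 counts in all libraries together, and 6 had none (Ugt1a8, Ugt1a10, Ugt2a2, Sult1c1, Sult2a3 and Sult3a1).

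The cells came from wild-type C57BL/6J mice, and 49 RNA libraries in 16 groups were counted at the 3′ ends of transcripts with molecular identifiers (CEL-seq2). Freshly isolated hepatocytes (FH, 3 libraries) were taken from 10-week-old male mice by collagenase digestion, with non-parenchymal cells removed by centrifugation. Hepatocytes in monolayer on collagen with EGF were collected after 3 h, on days 1, 2 and 4, and after 1 week and 2 weeks (3 libraries each), and at 1 week with 0.3 µM verteporfin, an inhibitor of YAP-TEAD binding, or with its vehicle DMSO (2 libraries each). DediHeps are the serially passaged dedifferentiated hepatocytes that grew from such cultures (5 libraries). DediHep aggregates are the same cells held in low-attachment plates, in the medium of an earlier aggregation protocol (3 libraries). DediHep-SOs are spheroid organoids of dediHeps in Matrigel with Wnt3a, EGF, Noggin, R-spondin1 and CHIR99021 (3 libraries), and dediHep-BOs are budding organoids grown without Wnt3a and CHIR99021 from dediHeps given Cdx2, an intestinal transcription factor, with GFP by viral transduction (3 libraries). FIPC-SOs from the E13.5 fetal intestine (3 libraries) and ISC-BOs from adult crypts (4 libraries) were the intestinal references. CLiPs are proliferative cells obtained from hepatocytes with Y-27632, A-83-01 and CHIR99021 (3 libraries).

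UGTs sit in the membrane of the endoplasmic reticulum and use UDP-glucuronic acid, GSTs use glutathione to disarm electrophiles, and SULTs use the sulfate donor PAPS. Together they make lipophilic compounds water-soluble and ready for export into bile or urine. The liver is the main organ for this work and the intestinal epithelium adds to it, with partly different members of each family. Several GST genes respond to oxidative stress through the transcription factor Nrf2, and many UGT and SULT genes respond to the xenobiotic receptors PXR (Nr1i2) and CAR (Nr1i3).

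A 3′ count can only be given to the right gene where the transcript end is unique, and the families hold near-identical copies. Over the last 400 bases of their protein-coding transcripts, 35 of the 67 members shared no stretch of 50 bases with another gene, 47 shared under 20% of such stretches and 20 shared more. The last 60 coding bases of the copies that matter most follow on GRCm38, 5′ to 3′. Capitals mark where a base differs from the first sequence of each set. Gsta2 is compared with Gsta1 after leaving out its own first 3 bases.
Gsta1, chr9:78242516-78242575, plus strand: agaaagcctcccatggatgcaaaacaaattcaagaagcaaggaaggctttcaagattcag
Gm3776, chr9:78268999-78269058, plus strand: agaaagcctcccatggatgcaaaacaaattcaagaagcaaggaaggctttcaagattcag
Gsta2, chr9:78331130-78331189, minus strand: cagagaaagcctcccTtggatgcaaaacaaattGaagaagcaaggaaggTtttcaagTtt
Gstp1, chr19:4035476-4035535, minus strand: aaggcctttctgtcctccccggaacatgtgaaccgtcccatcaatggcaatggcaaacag
Gstp2, chr19:4040354-4040413, minus strand: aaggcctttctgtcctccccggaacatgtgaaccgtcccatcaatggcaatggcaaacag
Gstp3, chr19:4057533-4057592, minus strand: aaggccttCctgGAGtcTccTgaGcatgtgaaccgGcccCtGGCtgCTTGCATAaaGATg
Gsta1 and its neighbour Gm3776 were identical over this stretch and 99.7% identical over their coding sequences, so a value for Gsta1 may hold Gm3776 reads. Gstp1 and Gstp2 were 98.1% identical, and their counts summed to 49623 and 49651, with a ratio per library between 0.815 and 1.11. In 48 of 49 libraries that ratio was within counting error of 1, and another row of the table, Gstp-ps, had a like total of 49792 counts. The same signal may thus be split over 3 rows, so the pair is treated as uncertain and Gstp1 stands for both. The levels of both genes and the GST sum, which holds Gstp1 and Gstp2 but not Gstp-ps, carry this uncertainty. The 9 Ugt1a genes share their last exons (the first of them at chr1:88215044-88215175) and had 254 counts between them, so single Ugt1a genes are described only where the rule for named genes asks for it. The UGT sum holds few Ugt1a counts, stands mainly for Ugt2 and Ugt3a, and may miss Ugt1a transcripts.

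In the 300-base promoter windows of RefSeq (250 bases before the start to 50 after it, GRCm38.p6), 59 of the 67 members could be matched. The core of the antioxidant response element, TGACNNNGC on either strand, was in the windows of 4 members, and in 14.0% of all genes. They are shown with the motif in capitals because they include members that moved in opposite directions below.
Gsta3, chr1:21240454-21240482, plus strand: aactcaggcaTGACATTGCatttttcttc
Gstm5, chr3:107895802-107895830, plus strand: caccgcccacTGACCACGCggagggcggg
Gstm7, chr3:107931725-107931753, minus strand: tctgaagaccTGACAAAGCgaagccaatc
Mgst1, chr6:138140461-138140489, plus strand: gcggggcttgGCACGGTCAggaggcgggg
A motif of the HNF1 type, GTTAATNAT on either strand, was in the windows of 8 members (Ugt1a1, Ugt1a9, Ugt1a10, Sult1d1, Sult2a3, Sult2a4, Sult2a5 and Sult2a6), and in 0.94% of all genes. The Sult2a genes lie in 1 cluster and the Ugt1a genes in another, so these 8 matches are not independent. All but Sult1d1 had fewer than 100 counts in all libraries together. The windows of Ugt1a1 and Sult1d1 show the motif on opposite strands.
Ugt1a1, chr1:88211905-88211933, plus strand: ggcacaatcaATCATTAACtggttgcaca
Sult1d1, chr5:87569067-87569095, minus strand: ccactgatcaGTTAATAATtgactaagag
Such a match describes letters in a window and says nothing about binding in these cells.

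Levels are given as CPM (counts per 1000000 counts of the library) after TMM scaling over all libraries, and folds as log2 fold changes with their standard errors from edgeR. Because 3′-end counts do not grow with transcript length, levels of different genes can be set side by side. Limits to this are the shared transcript ends above and, for the highest counts, the number of different identifiers. A member is called higher or lower where the Benjamini-Hochberg adjusted p was under 0.1 and the log2 fold change was beyond 2 in size, the thresholds of the study. Total counts ran from 861047 to 3872936 per library, with FH between 1211070 and 1523804. The TMM factors were 0.59 to 0.678 in FH and 3 h libraries and 0.909 to 1.27 in the others. With library totals alone the median gene lay at 0.61 to 1.05 on the log2 scale in the comparisons with FH from 1 day on, against −0.04 to 0.18 with TMM, a shift of 0.64 to 0.89. The counts of members called with library totals therefore stand beside those with TMM. The shares of all genes given below are those with TMM and edgeR, so counts with library totals or DESeq2 have no matched share. The share of calls that were higher went from 37.7 to 53.6% with TMM to 64.9 to 73.9% without it. The comparisons with FH share the same 3 FH libraries and are given side by side. In these bulk libraries, fewer cells of a type and less RNA per cell cannot be told apart.

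All members together made up 22876 ± 848 CPM in FH (SD, n = 3), 31319 CPM at 3 h and 5171 CPM at 1 day, and 2067 CPM at 2 weeks. The sum was 5022 CPM in dediHeps and 15031 ± 5066 CPM in aggregates (SD, n = 3). With a correction for repeated identifiers it was 21468 CPM in FH and 20095 CPM in aggregates. Without TMM factors it was 14604 ± 644 CPM in FH and 14011 ± 4284 CPM in aggregates (SD, n = 3 each). The UGT sum was 10026, 6628 and 7419 CPM in the FH libraries, 686, 588 and 473 CPM at 1 day and 104, 97.3 and 88.3 CPM at 2 weeks. In dediHeps it was 631, 1037, 1800, 984 and 1345 CPM, and in aggregates 5124, 3100 and 3404 CPM. With TMM scaling, FH, aggregates and dediHeps did not overlap in this order from high to low. The 2-week libraries lay below all of these, and dediHep 1 lay among the 1-day libraries. Without TMM factors the UGT sum was 5171 ± 1453 CPM in FH and 3616 ± 904 CPM in aggregates (SD, n = 3 each). The gap between FH and aggregates thus depended on the scaling. Ugt1a genes made up 26.9 CPM of the UGT sum in FH with TMM. The cytosolic GST sum was spread more widely in FH, at 8060, 13771 and 13767 CPM, and FH 1 stood apart from the other two. It was 1907 ± 306 CPM at 2 weeks and 13839, 7723 and 7982 CPM in aggregates, where it overlapped FH. With the correction for repeated identifiers the GST sum was 14643 ± 4295 CPM in aggregates and 11389 ± 3552 CPM in FH (SD, n = 3 each). The SULT sum was 1402, 1358 and 1049 CPM in FH, 18.2, 14.7 and 22.9 CPM at 2 weeks and 1720, 600 and 841 CPM in aggregates, again overlapping FH. The Mgst sum was 1716 ± 685 CPM in FH (SD, n = 3) and 253 ± 78.9 CPM in aggregates (SD, n = 3). Among the 4 classes, this was the 1 whose aggregate libraries stayed near those of dediHeps, at 190 ± 74.2 CPM (SD, n = 5).

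**Figure D1:**
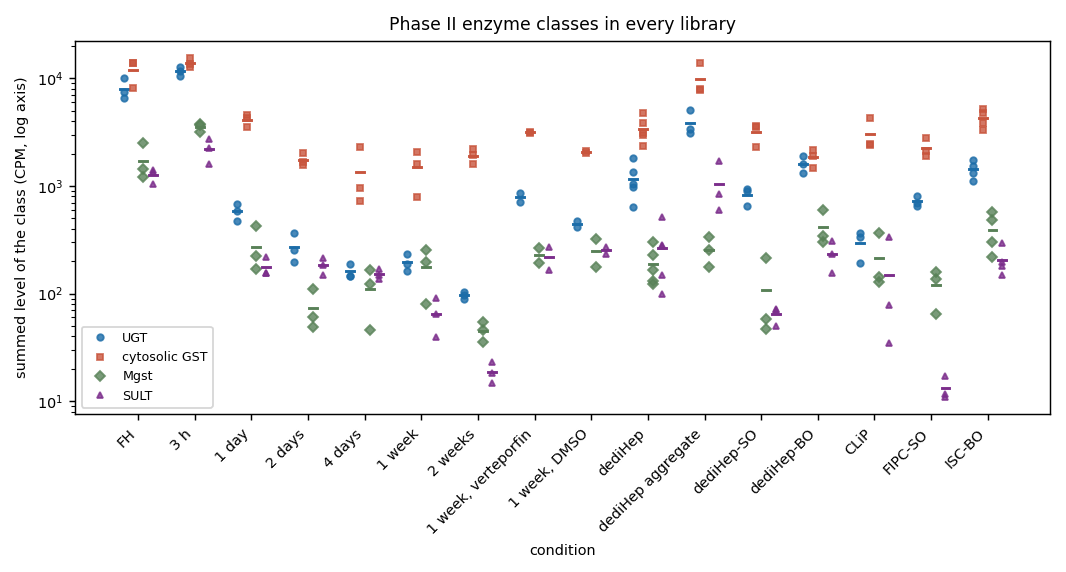
Summed CPM (log axis) of UGTs, cytosolic GSTs, Mgst genes and SULTs in each of the 49 libraries, by condition; points are libraries and short lines are condition means. The UGT sum was 8024 CPM in FH, 96.4 CPM at 2 weeks and 3876 CPM in aggregates, the GST and SULT sums of aggregates overlapped FH, and the Mgst sum of aggregates was 253 CPM against 1716 CPM in FH. Levels are TMM-scaled, and the UGT sum stands mainly for Ugt2 and Ugt3a (Ugt1a 26.9 CPM in FH).

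The first question of the design was how plating and culture changed hepatocytes. At 3 h, members lay mostly above their FH level: 29 of the 39 tested members had a log2 fold change over 0. Their median was 0.39, against −0.07 for all genes tested. Of the 39, 2 were called higher and 1 lower, against 3.06% and 3.85% of all genes tested (2 and 1 with library totals alone). These 3 calls depended on single libraries, with 8 calls without FH 1, 0 without FH 2 and 1 without FH 3. Gsta1 (2.1) and Ugt1a1 (−2.63) were also lost without the first 3 h library, Ugt1a1 (−3.1) without the second and Sult1e1 (4.81) without the third. Among the 41 members with a mean of at least 20 CPM in some condition, 18 had their highest mean at 3 h, 10 in aggregates and 4 in FH. The same was not counted over all genes. At 1 day, 2 of 39 were called higher and 27 lower, against 6.57% and 10.9% of all genes (3 and 20 with library totals). At 2 days, 2 were higher and 32 lower, against 9.21% and 12.1% (2 and 27). At 4 days, 1 week and 2 weeks, 0 of 39 were higher by edgeR and 32 were lower each time, with 1 and 27, 1 and 29, and 1 and 29 with library totals. DESeq2 called 1 higher at each of these times, and 0, 1 and 2 members were higher at an unadjusted p under 0.05 in edgeR. The background was 11.4% higher and 12.4% lower at 4 days, 13.2% and 12.8% at 1 week, and 14.1% and 15.3% at 2 weeks. The median log2 fold change of the members was −2.74 at 1 day, −4.14 at 4 days and −4.68 at 2 weeks. Summed markers of hepatocytes moved alike, from 14610 to 18103 CPM in FH to 5221 to 6509 CPM at 1 day and 977 to 1436 CPM at 2 weeks, and their part in the result was not tested.

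The Ugt2 genes, which glucuronidate steroids, bile acids and many drugs, all fell: 8 of 8 tested were called lower at every time from 1 day to 2 weeks, and none at 3 h. Ugt2b36 (chr5:87065927-87092555 on GRCm38) was at 2074, 2431 and 1938 CPM in FH, at 159, 176 and 98.7 CPM at 1 day and at 14.6, 8.21 and 11.5 CPM at 2 weeks. The groups were far apart, and the log2 fold change was −3.98 ± 0.348 (SE, edgeR adjusted p = 1.87e-08) at 1 day and −7.55 ± 0.421 (adjusted p = 3.58e-12) at 2 weeks. Ugt2b34 (chr5:86889767-86906937), a neighbour in the same cluster, was at 1554, 858 and 1208 CPM in FH and at 39.3, 23.5 and 28.7 CPM at 2 weeks, a log2 fold change of −5.31 ± 0.389 (SE, edgeR adjusted p = 2.11e-10). Every 2-week library had more Ugt2b34 than Ugt2b36, while every FH library had less. Ugt2a3 was at 404, 295 and 183 CPM in FH and had 1 count at 2 weeks, a ratio of 1552 with a 95% counting interval of 278 to 61385. Ugt2b35 had the smallest log2 fold change of the 8 at 2 weeks (−4.43 ± 0.49, edgeR adjusted p = 1.34e-07), at 47.5, 63.9 and 37.9 CPM at 2 weeks against 907, 885 and 1395 CPM in FH.

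Ugt3a2 (chr15:9335550-9370955), a UGT that uses sugars other than glucuronic acid, was uneven in FH at 964, 141 and 180 CPM. At 3 h it was at 1143, 1896 and 1499 CPM, above every FH library, with a log2 fold change of 1.81 ± 0.589 (SE, edgeR adjusted p = 0.0534), short of the fold threshold. It then fell to 39.0, 34.3 and 30.5 CPM at 1 day and to 0 counts in the libraries of 1 and 2 weeks, at least 770-fold lower than FH at 2 weeks. Here and below, the limit for a group without counts is 3 counts over its libraries. Ugt1a1, the enzyme that conjugates bilirubin, was the member called lower at 3 h: it had 27 counts in FH and 3 at 3 h, a ratio of 9.02 with a 95% interval of 2.78 to 46.5 (edgeR adjusted p = 0.0382). Its levels were 9.44, 13.7 and 9.29 CPM in FH and 0, 1.1 and 2.32 CPM at 3 h, and its shared exons limit what these counts say of the gene.

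The GST families were called lower to different extents. Of the 7 Gstm genes, 4 were called lower at 1 day and 6 from 2 days to 2 weeks, and of the 3 Gstp genes 0 at 1 day, 2 from 2 days to 1 week and 3 at 2 weeks. With library totals the Gstm count was 2 at 1 day, 5 at 2 and 4 days, 6 at 1 week and 4 at 2 weeks, and the Gstp count was 0 up to 1 week and 2 at 2 weeks. Gstp1 and Gstp2 count as 2 genes here although they could not be told apart. Gstm1 (chr3:108012255-108017973), the most abundant member in FH at 13.3% of the sum of all members, was at 2439, 3520 and 3193 CPM in FH, 1067, 1477 and 1211 CPM at 1 day and 426, 597 and 747 CPM at 2 weeks. The log2 fold change was −1.38 ± 0.461 (SE, edgeR adjusted p = 0.0248) at 1 day, short of the fold threshold, and −2.38 ± 0.477 (adjusted p = 0.000282) at 2 weeks. It made up 28.5% of all members' CPM at 2 weeks. Its highest count in a library was 4032, close to the number of different identifiers that 6 bases allow, so its highest levels are compressed. The log2 fold change at 2 weeks was −2.84 after a correction for repeated identifiers and −1.68 with library totals, where the call was lost. Gstp1 was at 1267, 1958 and 2317 CPM in FH and at 217, 303 and 263 CPM at 2 weeks, a log2 fold change of −2.84 ± 0.446 (SE, edgeR adjusted p = 1.73e-05).

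Gsta3 (chr1:21240589-21265661), the alpha-class GST that detoxifies aflatoxin in mice, was at 876, 2093 and 1125 CPM in FH, 149, 115 and 73.8 CPM at 1 day and 36.4, 21.1 and 45.9 CPM at 2 weeks. Its log2 fold change at 2 weeks was −5.34 ± 0.495 (SE, edgeR adjusted p = 8.66e-09). The membrane-bound Mgst1 (chr6:138140316-138156755), which protects against lipid peroxides, was at 2481, 1212 and 1436 CPM in FH, at 3179, 3618 and 3768 CPM at 3 h and at 40.0, 32.8 and 45.9 CPM at 2 weeks. All 3 libraries at 3 h lay above FH, without reaching the thresholds (log2 fold change 1.03 ± 0.457, edgeR adjusted p = 0.146), and the fall at 2 weeks was −5.45 ± 0.555 (adjusted p = 3.82e-08). Gstz1, which also serves tyrosine breakdown, was at 450, 1115 and 1137 CPM in FH and at 32.1, 17.0 and 40.1 CPM at 2 weeks (log2 fold change −4.95 ± 0.441, edgeR adjusted p = 4.59e-09).

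A few GSTs did not follow. Gsto1 (chr19:47854970-47864790), an omega-class GST that reduces dehydroascorbate and arsenicals, was at 173, 155 and 184 CPM in FH, 69.0, 60.9 and 70.6 CPM at 2 days and 206, 267 and 348 CPM at 2 weeks. The last 3 libraries lay above every FH library, with a difference of 0.67 ± 0.275 on the log2 scale (edgeR adjusted p = 0.0489), under the fold threshold, or 1.36 with library totals. Gstm5 (chr3:107895821-107898686) was at 11.8, 9.58 and 19.6 CPM in FH, 36.9, 52.9 and 49.9 CPM at 1 day and 39.3, 37.5 and 36.7 CPM at 2 weeks. The log2 fold change was 1.65 ± 0.445 (SE, edgeR adjusted p = 0.00627) at 1 day and 1.43 ± 0.449 (adjusted p = 0.012) at 2 weeks, and both passed the fold threshold with library totals, at 2.31 and 2.14. Gsta4, which clears the lipid peroxidation product 4-hydroxynonenal, fell to 41.3, 21.7 and 12.2 CPM at 2 days from 332, 369 and 404 CPM in FH and was at 149, 75.6 and 153 CPM at 2 weeks. At that last time it was not called (log2 fold change −1.57 ± 0.597, edgeR adjusted p = 0.0347).

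Gsta1 (chr9:78230656-78242684), an Nrf2-responsive alpha-class GST, was called higher at 3 h, 1 day and 2 days. It was at 16.5, 6.84 and 7.23 CPM in FH, 89.2, 39.7 and 48.8 CPM at 3 h, 261, 229 and 210 CPM at 1 day and 95.4, 28.3 and 43.8 CPM at 2 days. Each of these groups lay above FH without overlap. The log2 fold change was 2.5 ± 0.805 (SE, edgeR adjusted p = 0.0463) at 3 h, 4.42 ± 0.817 (adjusted p = 0.000217) at 1 day and 2.37 ± 0.79 (adjusted p = 0.0214) at 2 days. The call at 2 days rested on 1 library, with 1.74 when the first 2-day library was left out. At 2 weeks its 15.4, 6.45 and 18.4 CPM overlapped FH (0.34 ± 0.837, edgeR adjusted p = 0.758). With library totals Gsta1 was also called higher at 4 days (2.25) and at 1 week (2.16), and at every time part of its counts may belong to Gm3776.

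Of the SULTs tested, 2 of 4 Sult1 genes were called lower at 1 day (1 with library totals) and 3 at 2 weeks, together with Sult2a8 and Sult5a1 at both times. Sult2a8 (chr7:14410686-14446769), a liver sulfotransferase for bile acids, was at 916, 491 and 587 CPM in FH, 1469, 824 and 1713 CPM at 3 h and 25.2, 18.1 and 19.8 CPM at 1 day, a log2 fold change of −5.06 ± 0.46 (SE, edgeR adjusted p = 1.64e-07) at 1 day. It had 1 count at 4 days, a ratio of 4386 with a 95% interval of 786 to 173339, and 0 counts at 2 weeks, at least 1199-fold lower than FH. Sult1a1 (chr7:126672865-126676432), which sulfates simple phenols, was at 291, 658 and 318 CPM in FH and 12.1, 8.79 and 8.03 CPM at 2 weeks (log2 fold change −5.44 ± 0.457, edgeR adjusted p = 1.83e-09). Sult1d1, which acts on catecholamines, was at 166, 86.2 and 60.9 CPM in FH, 36.9, 57.0 and 34.6 CPM at 1 day and 2.5, 0.586 and 2.29 CPM at 2 weeks (−5.82 ± 0.612 at 2 weeks, edgeR adjusted p = 6.22e-08).

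Sult1e1 (chr5:87575969-87591594), the estrogen sulfotransferase, was called higher. It had no count in FH, was at 2.55, 1.1 and 9.29 CPM at 3 h, 30.8, 33.3 and 32.6 CPM at 1 day and 15.7, 12.0 and 3.89 CPM at 2 days. It was called higher at these 3 times (edgeR adjusted p = 0.0675, 0.000245 and 0.00298), by at least 3.66-fold, 27.3-fold and 9.27-fold. The 3 libraries at 1 day were close to each other, while those at 3 h and 2 days were spread. At 2 weeks it was not called (edgeR adjusted p = 0.408).

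**Figure D2:**
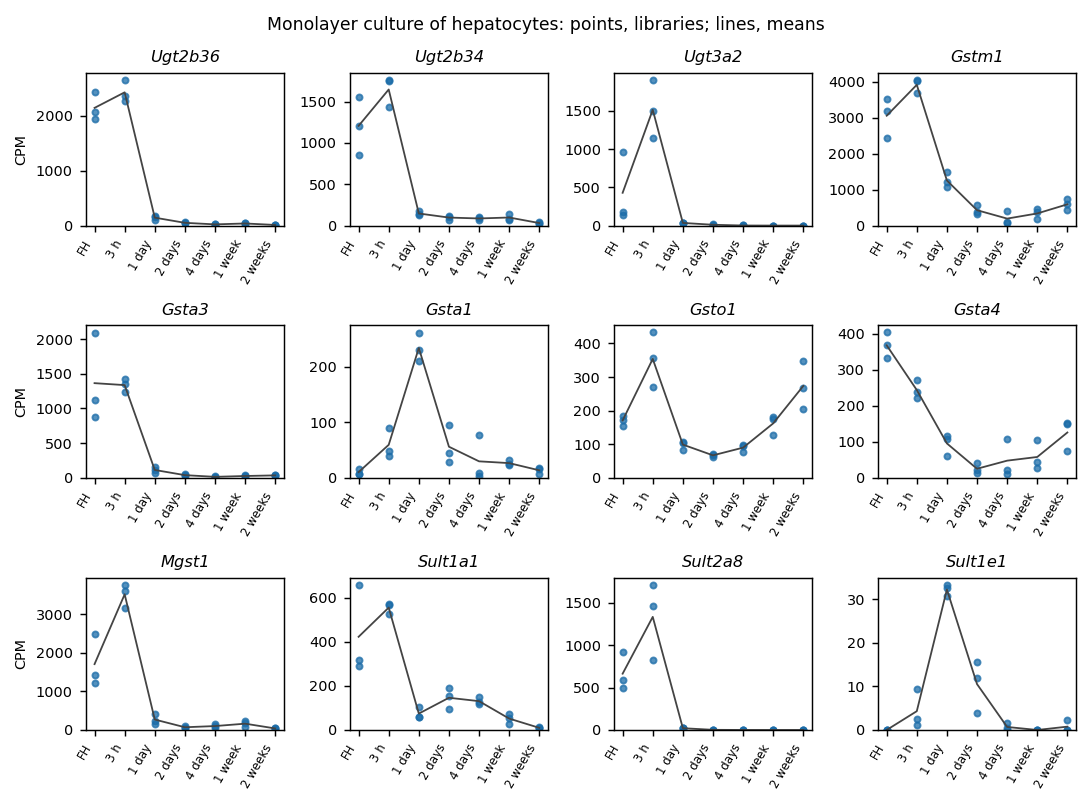
CPM of 12 members in FH and over monolayer culture from 3 h to 2 weeks; points are libraries (3 per time) and lines join the means. Ugt2b36, Ugt2b34, Ugt3a2, Gsta3, Mgst1, Sult1a1 and Sult2a8 fell from 1 day on, Gsta1 and Sult1e1 peaked at 1 day, and Gsto1 at 2 weeks (206 to 348 CPM) lay above FH (155 to 184 CPM).

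Passaged dediHeps had lower levels of most members than FH, with Ugt2b34, Gsta4 and Gsto1 among those that stayed abundant. Against FH, 2 of 39 tested members were called higher and 26 lower, beside 13.1% and 12.6% of all genes, and 5 and 18 with library totals alone. The median log2 fold change was −2.6. Of the 8 Ugt2 genes tested 7 fell, as did both Ugt3a genes, 4 of 7 Gstm genes and 1 of 4 Sult1 genes, with 6 Ugt2 and 2 Gstm genes by library totals. Ugt2b1 (chr5:86916638-86926530) was at 788, 627 and 608 CPM in FH and at 1.12, 0, 0.907, 0.395 and 1.42 CPM in dediHeps, a log2 fold change of −9.78 ± 0.53 (SE, edgeR adjusted p = 3.18e-07). In the same cells Ugt2b34 was at 518, 650, 988, 585 and 705 CPM against 1554, 858 and 1208 CPM in FH, with a log2 fold change of −0.93 ± 0.318 (edgeR adjusted p = 0.0384) and of −0.04 with library totals. These 2 genes of 1 cluster on chromosome 5 thus stood at the 2 ends of the family. Ugt2b34 alone made up 13.7% of all members' CPM in dediHeps.

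Between these ends, Ugt2b36 was at 62.1, 198, 280, 150 and 350 CPM in dediHeps (log2 fold change −3.5 ± 0.464, edgeR adjusted p = 0.000146). Ugt2b5 was at 6.15, 18.1, 71.6, 20.9 and 48.3 CPM against 3007, 1146 and 1729 CPM in FH (−6.01 ± 0.694, edgeR adjusted p = 5.44e-05). Ugt2b37 was at 0, 0.503, 1.21, 0.789 and 0.947 CPM against 96.8, 107 and 79.5 CPM (−6.98 ± 0.509, edgeR adjusted p = 2.31e-06). Ugt2b38 had 2 counts in dediHeps, a ratio of 396 with a 95% interval of 108 to 3297. No library of dediHeps had a count of Sult2a8, Ugt3a1 or Ugt3a2, which were at least 2615-fold, 233-fold and 1680-fold lower than in FH.

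Among GSTs, Gstm4 was at 8.95, 9.05, 8.16, 9.87 and 8.52 CPM in dediHeps, an even level over 5 cultures, and at 132, 91.7 and 218 CPM in FH (log2 fold change −4.16 ± 0.357, edgeR adjusted p = 7.04e-06). The theta-class Gstt2 was at 0 to 0.947 CPM against 42.5, 73.9 and 91.9 CPM in FH (−7.23 ± 0.663, edgeR adjusted p = 1.07e-05), and Mgst1 was at 258, 148, 139, 116 and 90.9 CPM (−3.62 ± 0.414, edgeR adjusted p = 5.05e-05). Gsto1 was at 484, 355, 582, 443 and 332 CPM, each above every FH library, with a log2 fold change of 1.25 ± 0.314 (edgeR adjusted p = 0.00899), under the fold threshold, and 2.14 with library totals. Gsta4 was at 134, 562, 431, 583 and 685 CPM and overlapped FH (0.25 ± 0.44, edgeR adjusted p = 0.697; 1.14 with library totals).

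The members called higher than FH were Gsta1 and Mgst2. Gsta1 was at 25.2, 86.5, 145, 40.7 and 90.0 CPM, all above FH (log2 fold change 2.79 ± 0.647, edgeR adjusted p = 0.00568). Mgst2 (chr3:51660360-51682677), which can conjugate leukotriene A4, had 1 count in FH and was at 4.47, 10.6, 29.9, 5.13 and 11.8 CPM in dediHeps, a ratio of 36.0 with a 95% interval of 6.38 to 1432 (edgeR adjusted p = 0.00959). With library totals Gsto1, Gstm5 (2.08) and Mgst3 (2.97) passed as well. Sult1d1 was not called and was spread over 148, 38.7, 163, 19.7 and 302 CPM, and Sult1a1 was at 132, 51.8, 94.0, 117 and 200 CPM, below every FH library (−1.95 ± 0.437, edgeR adjusted p = 0.00472, short of the fold threshold). Summed hepatocyte markers ran from 853 to 4009 CPM and cholangiocyte markers from 1010 to 1671 CPM in these 5 libraries, and their part in the member levels was not tested.

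The next question was how aggregates differed from dediHeps in monolayer. Aggregates were also kept in another medium, so the parts of 3 dimensions and of medium cannot be told apart. Of 32 tested members, 19 were called higher and 0 lower than in dediHeps by edgeR, beside 4.39% and 5.11% of all genes (16 and 0 with library totals, 22 and 0 by DESeq2, and 0 lower at an unadjusted p under 0.05), and 30 of the 32 had a log2 fold change over 0. The median was 2.26, against −0.07 for all genes tested. Higher calls came from 5 of 6 Ugt2 genes, 5 of 7 Gstm, 2 of 4 Gsta, 1 of 3 Gstp, 2 of 2 Gstt, 2 of 4 Sult1 and 2 of 3 Gstk, Gsto and Gstz genes, and from 0 of 3 Mgst genes. Aggregate 1 was the highest for most of them, and without it 12 members were called.

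Gstm4 rose to 139, 109 and 68.2 CPM in aggregates, each above every dediHep library (log2 fold change 3.56 ± 0.309, edgeR adjusted p = 0.000147). Gstm3 was at 2.24, 5.03, 19.0, 7.11 and 33.1 CPM in dediHeps and at 615, 152 and 194 CPM in aggregates (4.57 ± 0.757, edgeR adjusted p = 0.00435). Ugt2b5 rose to 776, 247 and 534 CPM (3.95 ± 0.658, edgeR adjusted p = 0.00443) and Ugt2b36 to 1332, 887 and 958 CPM (2.35 ± 0.45, edgeR adjusted p = 0.00852). Ugt2b37 was at 25.0, 7.38 and 15.8 CPM (4.32 ± 0.635, edgeR adjusted p = 0.00235), and Ugt2b38 at 10.5, 5.65 and 14.3 CPM, a ratio of 57.5 to dediHeps with a 95% interval of 15.2 to 487. These 6 genes did not overlap between the groups.

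Sult1a1 was at 911, 317 and 654 CPM in aggregates (log2 fold change 2.41 ± 0.432, edgeR adjusted p = 0.00606), and all 3 lay above dediHeps. Gstp1 was at 1855, 1096 and 1506 CPM against 321, 303, 427, 697 and 375 CPM in dediHeps (1.82 ± 0.312, edgeR adjusted p = 0.00503), without overlap but under the fold threshold. Sult2a1, a sulfotransferase for steroids and bile acids, had no count in FH or dediHeps and was at 8.89, 2.17 and 18.3 CPM in aggregates, at least 36.9-fold above dediHeps. It was too low for the edgeR filter and has no test. Mgst1 was at 158, 185 and 317 CPM and overlapped dediHeps (0.55 ± 0.37, edgeR adjusted p = 0.317), and Gsto1 was at 456, 499 and 281 CPM (−0.09 ± 0.294, edgeR adjusted p = 0.851).

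Measured against FH, aggregates had 2 of 37 tested members called higher and 12 lower, beside 6.78% and 9.78% of all genes, and 6 and 9 with library totals. The 23 others were not called, and several of the abundant ones overlapped FH. Ugt2b35 (chr5:87000860-87013275) was at 1357, 1009 and 900 CPM against 907, 885 and 1395 CPM in FH (log2 fold change −0.05 ± 0.332, edgeR adjusted p = 0.921). Ugt2b34 was at 1609, 933 and 975 CPM (−0.14 ± 0.364, edgeR adjusted p = 0.804) and Gstm1 at 3095, 1751 and 1990 CPM (−0.51 ± 0.325, edgeR adjusted p = 0.268). Sult1a1 also overlapped FH (0.47 ± 0.462, edgeR adjusted p = 0.481). With library totals the log2 fold changes of these 4 genes were 0.59, 0.49, 0.14 and 1.13, so the sign turned for 3 of them. The highest Gstm1 counts are compressed by the number of different identifiers, which bears on its fold here. With identifier correction the Gstm sum was 7778 ± 2775 CPM in aggregates and 4762 ± 1366 CPM in FH (SD, n = 3 each). Without it the sums were 3711 and 4448 CPM.

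Other members stayed far below FH in aggregates. Ugt2b1 was at 4.04, 3.47 and 5.09 CPM against over 600 CPM in each FH library (log2 fold change −7.4 ± 0.451, edgeR adjusted p = 1.89e-06). Ugt2a3 was at 4.85, 7.38 and 0.509 CPM (−6.17 ± 0.716, edgeR adjusted p = 0.000143). Sult2a8, Ugt3a1 and Ugt3a2 had no counts and were at least 1227-fold, 109-fold and 788-fold lower than FH. Mgst1 was lower by −3.07 ± 0.434 on the log2 scale (edgeR adjusted p = 0.000456). Gsta1, at 324, 143 and 60.6 CPM, was higher than FH by 3.99 ± 0.683 (edgeR adjusted p = 0.00152). Gstm3 was higher than its 48.4, 47.9 and 53.7 CPM in FH by 2.58 ± 0.542 (edgeR adjusted p = 0.00499), and by 1.78 without aggregate 1, which ended the call. With library totals Gstm5 (2.62), Sult1c2 (2.29), Mgst3 (2.03) and Sult1d1 (2.34) were called higher too. The hepatocyte marker sum was 6090 to 9893 CPM in aggregates, between dediHeps and FH, and its part in the member levels was not tested. The limit of the identifiers may compress the marker sum of FH.

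Organoid culture was compared with the dediHeps it started from and with organoids of the fetal intestine. In dediHep-SOs 2 of 29 tested members were called higher and 7 lower than in dediHeps, beside 4.12% and 4.65% of all genes, with 2 and 7 by library totals. Gstt3, a theta-class GST, was at 17.9, 39.2, 31.4, 53.7 and 42.1 CPM in dediHeps and at 272, 227 and 122 CPM in dediHep-SOs (log2 fold change 2.49 ± 0.378, edgeR adjusted p = 0.00173). Sult1c2 (chr17:53829637-53846339), which sulfates phenols, was at 1.68, 5.03, 3.63, 9.08 and 6.16 CPM in dediHeps and at 42.1, 39.2 and 16.2 CPM in dediHep-SOs (2.65 ± 0.502, edgeR adjusted p = 0.0062). Neither gene overlapped between the groups.

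Gsta1 fell to 1.93, 1.98 and 5.55 CPM in dediHep-SOs (log2 fold change −4.62 ± 0.711, edgeR adjusted p = 0.00187), below every FH library. Gsta2 had no count in dediHep-SOs and was at least 26.3-fold lower than in dediHeps (edgeR adjusted p = 0.00223). Sult1a1 was at 17.7, 17.4 and 13.9 CPM (−2.87 ± 0.458, edgeR adjusted p = 0.00229), and Ugt2b36 was lower by −3.23 ± 0.547 (edgeR adjusted p = 0.00315). Ugt2b5, Gstm3 and Sult1d1 were the other members called lower, and the call of Sult1d1 was lost without dediHep-SO 1 (−4.7). The call of Gstm3 was lost with dediHep-SOs paired to dediHeps of the same culture (−1.71 with the replicate block). It was also lost without dediHep 3 (−2.42), without dediHep 5 (−1.93) and without any 1 of the dediHep-SO libraries (−3.43, −2.28 and −2.37). Gsto1 led the dediHep-SO repertoire at 591, 711 and 650 CPM, or 15.7% of all members, while its difference from dediHeps was not called.

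Against FIPC-SOs, 5 of 31 tested members were called higher in dediHep-SOs and 5 lower, beside 4.92% and 3.99% of all genes (4 and 5 with library totals). The higher ones were Sult1a1, Sult1c2, Gsta3, Gstt1 and Sult2b1. Sult1a1 was at 0.39, 0 and 0.642 CPM in FIPC-SOs, and its counts gave a ratio of 46.8 with a 95% interval of 15.7 to 230 (edgeR adjusted p = 0.00056). Gsta3 was at 206, 284 and 255 CPM in dediHep-SOs and 56.5, 49.8 and 62.3 CPM in FIPC-SOs (log2 fold change 2.1 ± 0.277, edgeR adjusted p = 0.000936), and Sult1c2 was higher by 5.21 ± 0.64 (edgeR adjusted p = 0.000672). The lower ones were Gsta1, Gstm3, Gstt2, Ugt2b5 and Sult1b1. Gsta1 was at 66.6, 71.5 and 99.8 CPM in FIPC-SOs (−4.7 ± 0.473, edgeR adjusted p = 0.000243), Gstm3 was lower by −4.83 ± 0.53 (edgeR adjusted p = 0.000385), and Gstt2 had 1 count in dediHep-SOs, a ratio of 51.2 with a 95% interval of 8.85 to 2057. The remaining 21 members, Ugt2b34, Ugt2b35 and Gstm1 among them, were not called.

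DediHep-BOs were set beside ISC-BOs, budding organoids of the adult intestine. Of 34 tested members, 0 were called higher by edgeR and 6 lower, beside 1.34% and 1.71% of all genes, also with library totals (0 and 6). DESeq2 called 1 higher and 6 lower, and 2 members were higher at an unadjusted p under 0.05 in edgeR. All 6 were GSTs: 5 of the 7 Gstm genes (Gstm2, Gstm3, Gstm4, Gstm6 and Gstm7) and Gstt2. Gstm2 was at 32.0, 39.7 and 56.0 CPM in dediHep-BOs and 434, 611, 294 and 318 CPM in ISC-BOs (log2 fold change −3.25 ± 0.329, edgeR adjusted p = 0.000339). Gstm4 was at 5.34, 3.53 and 7.1 CPM against 55.7, 99.5, 46.6 and 46.8 CPM (−3.5 ± 0.409, edgeR adjusted p = 0.000778), and Gstm6 at 15.5, 17.2 and 37.2 CPM against 203, 273, 133 and 136 CPM (−2.96 ± 0.401, edgeR adjusted p = 0.00184). Gstm1 did not overlap either, at 268, 139 and 388 CPM against 1111, 1013, 768 and 921 CPM (−1.81 ± 0.304, edgeR adjusted p = 0.00623), but was under the fold threshold.

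Sult6b2 and Mgst2 had their highest means in these 2 kinds of organoid. Sult6b2 (chr6:142785204-142804502) was at 32.5, 15.9 and 18.4 CPM in dediHep-BOs and 30.3, 39.3, 13.6 and 32.8 CPM in ISC-BOs (log2 fold change −0.35 ± 0.389, edgeR adjusted p = 0.614). Mgst2 was at 61.1, 45.9 and 51.8 CPM and 71.9, 58.5, 39.4 and 118 CPM (−0.42 ± 0.355, edgeR adjusted p = 0.497). Ugt2b34 led dediHep-BOs with 23.1% of all members, at 1079, 799 and 962 CPM (0.16 ± 0.218 against ISC-BOs, edgeR adjusted p = 0.681). The summed intestinal epithelial markers were 1862 to 2021 CPM in dediHep-BOs and 2310 to 2763 CPM in ISC-BOs.

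ISC-BOs were also set against FH, with 6 of 42 tested members higher and 18 lower, beside 14.8% and 13.3% of all genes (8 and 14 with library totals). ISC-BOs are cultured organoids and FH were not cultured, so tissue and culture cannot be told apart here. The 6 were Gsta1, Mgst2, Mgst3, Sult1c2, Sult2b1 and Sult6b2. Gsta1 was at 445, 429, 220 and 541 CPM (log2 fold change 5.25 ± 0.502, edgeR adjusted p = 5.15e-06). Mgst2 had a ratio of 183 to its single FH count, with a 95% interval of 32.6 to 7220 (edgeR adjusted p = 2.41e-05). Sult6b2 had no count in FH and was at least 24.5-fold higher (edgeR adjusted p = 0.000127). On the lower side, Ugt2b1 had 2 counts in ISC-BOs, a ratio of 2993 with a 95% interval of 827 to 24733. Sult1a1 had 1 count, a ratio of 3616 with an interval of 648 to 142957, and Sult2a8 had none and was at least 1981-fold lower. Gsta1 and Mgst2 were thus higher than in FH both in dediHeps and in ISC-BOs, in comparisons that share the FH libraries.

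CLiPs, the chemically induced progenitors, were compared with dediHeps and with FH. Against dediHeps, 1 of 29 tested members was called higher and 5 lower, beside 1.65% and 1.39% of all genes (1 and 5 with library totals). Ugt2b34 was at 74.5, 153 and 125 CPM in CLiPs, below every dediHep library (log2 fold change −2.53 ± 0.356, edgeR adjusted p = 0.00947). Gsta4 was at 52.8, 38.9 and 86.8 CPM (−2.97 ± 0.549, edgeR adjusted p = 0.0231) and Gsta1 at 5.92, 7.14 and 10.9 CPM (−3.25 ± 0.621, edgeR adjusted p = 0.0266), again below every dediHep library. Gsta2 and Sult1d1 were the other 2. The higher call, Gstm6, was at 37.5, 81.1 and 170 CPM against 19.6, 18.1, 41.7, 15 and 15.6 CPM (2.15 ± 0.516, edgeR adjusted p = 0.059), overlapped dediHeps and was at 1.43 without CLiP 3. Without CLiP 1 or without CLiP 3, 3 members were called in place of 6.

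Against FH, 1 of 36 tested members was higher in CLiPs and 26 lower, beside 13.1% and 11.4% of all genes, with 1 and 21 by library totals. All 8 Ugt2 genes tested fell. Ugt2b1 was lower by −10.12 ± 0.794 on the log2 scale (edgeR adjusted p = 0.000187), Ugt2b37 had 1 count, a ratio of 837 with a 95% interval of 149 to 33208, and Sult2a8 had none and was at least 2005-fold lower. Gstm5 was the higher call, at 60.2, 45.2 and 352 CPM (3.51 ± 0.852, edgeR adjusted p = 0.0137), and at 1.93 without CLiP 3 it was no longer called. CLiP 3 was also the high library for Sult1a1, at 23.2, 49.8 and 318 CPM, which was not called (−1.65 ± 0.885, edgeR adjusted p = 0.198). The hepatocyte marker sum of the 3 CLiP libraries ranged from 1205 to 5299 CPM, and its part in this spread was not tested.

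**Figure D3:**
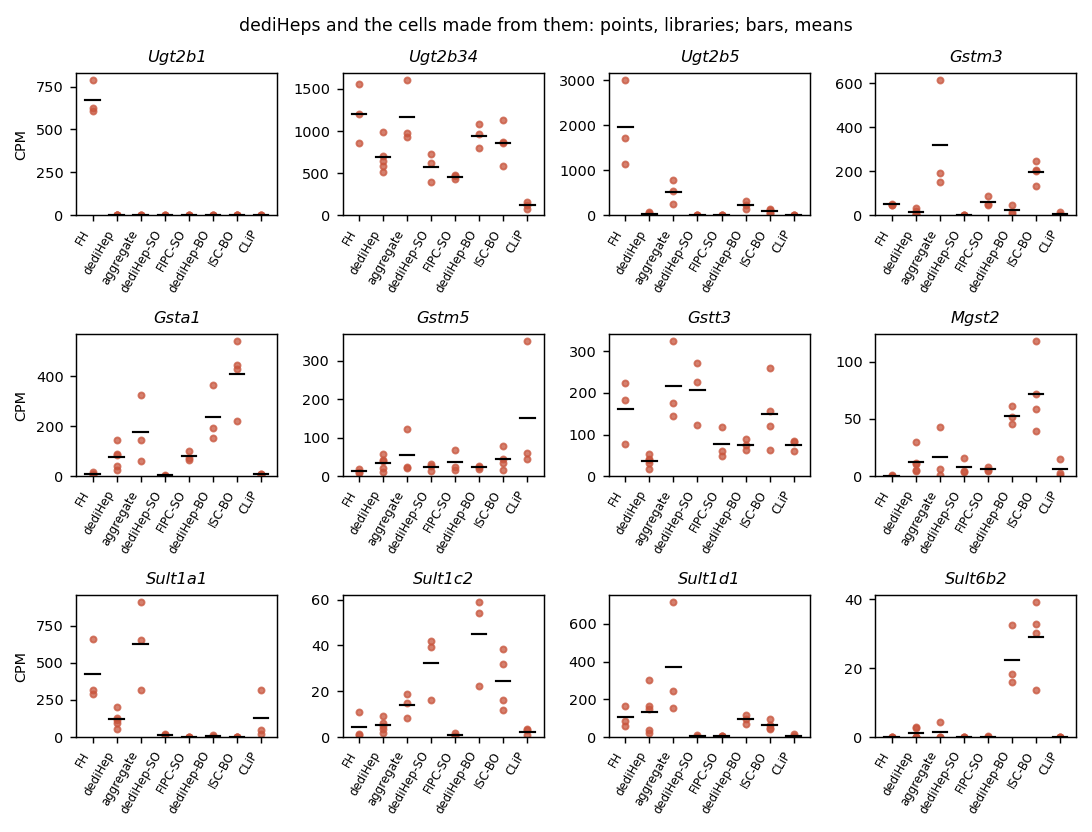
CPM of 12 members in FH, dediHeps, aggregates, dediHep-SOs, FIPC-SOs, dediHep-BOs, ISC-BOs and CLiPs; points are libraries and bars are means. Ugt2b34 ran from 518 to 988 CPM in dediHeps while Ugt2b1 was at most 1.42 CPM there, Gstm3 and Sult1a1 rose in aggregates, and Mgst2 and Sult6b2 were highest in the 2 kinds of budding organoid.

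Verteporfin at 1 week tested whether blocking YAP-TEAD changed these genes. None of 27 tested members was called by edgeR or by DESeq2 (0 higher and 0 lower, also with library totals), beside 0.24% and 0.0288% of all genes. An unadjusted p under 0.05 in edgeR was found for 5 of these members and for 961 of the 10400 genes tested. With 2 libraries a group only large effects could pass. The 2 members with the lowest adjusted p were higher with verteporfin in both libraries. Gsta3 was at 73.4 and 84.2 CPM with verteporfin and 29.0 and 30.8 CPM with DMSO (log2 fold change 1.43 ± 0.29, edgeR adjusted p = 0.136). Gstm1 was at 1337 and 1359 CPM against 664 and 763 CPM (0.95 ± 0.198, edgeR adjusted p = 0.156). The cytosolic GST sum was 3135 and 3200 CPM with verteporfin and 2009 and 2116 CPM with DMSO, and the UGT sum 710 and 859 CPM against 475 and 416 CPM. The SULT sum (164 and 270 against 232 and 271 CPM) and the Mgst sum (192 and 268 against 177 and 321 CPM) overlapped. Of the 27 members, 20 had a log2 fold change over 0 and 7 under 0. The median was 0.41 for the members and −0.0 for all genes tested, and the signs of all genes were not counted.

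Lists of related genes were counted beside the same shares of all genes: 3.06% higher and 3.85% lower at 3 h, 6.57% and 10.9% at 1 day, 14.1% and 15.3% at 2 weeks, 13.1% and 12.6% in dediHeps, and 4.39% and 5.11% in aggregates against dediHeps. In lists this short, counts such as 1 of 7 or 1 of 13 lie near these shares. A list of 15 other conjugating and related enzymes was mostly called lower than FH from 1 day on. It holds methyl-, acetyl- and amino acid transferases and the acyl-CoA synthetases Acsm1, Acsm3 and Acsm5. Of 14 tested, 0 were called at 3 h, 9 were lower at 1 day, 11 at 2 days, 10 at 4 days, 12 at 1 and 2 weeks and 13 in dediHeps, and 6 of 9 were higher in aggregates than in dediHeps. Gnmt, which methylates glycine, had a mean of 4481 CPM in FH, 4.09 CPM at 2 weeks, 50.3 CPM in dediHeps and 1256 CPM in aggregates. Glyat, the glycine conjugase for benzoate, was at 695, 2.35, 3.03 and 69.9 CPM in the same groups. No gene of the list was called higher than FH in any comparison.

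Of 13 genes that supply the cofactors, 4 were lower at 1 day, 6 at 2 weeks and 4 in dediHeps, 0 were higher at any time, and 1 was higher in aggregates than in dediHeps. Ugdh, which makes UDP-glucuronic acid, had means of 226 CPM in FH, 204 CPM at 2 weeks, 415 CPM in dediHeps and 545 CPM in aggregates. Gclc, the catalytic subunit for glutathione synthesis, was at 279 CPM in FH, 1089 CPM at 3 h, 276 CPM at 2 weeks and 576 CPM in dediHeps, and its modifier Gclm was at 523, 801, 252 and 289 CPM. Of the 2 PAPS synthases, Papss2 went from 322 CPM in FH to 9.12 CPM at 2 weeks and 24.0 CPM in dediHeps, while Papss1 was at 24.1, 67.1 and 62.6 CPM.

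Of the 9 regulators, 4 were lower at 2 weeks and 4 in dediHeps, and 3 of 8 were higher and 1 lower in aggregates than in dediHeps. Nr1i2 was at a mean of 222 CPM in FH, 12.5 CPM at 2 weeks, 15 CPM in dediHeps and 136 CPM in aggregates. Nr1i3 was at 130, 0.382, 0.181 and 6.61 CPM in these groups. Hnf4a, the hepatocyte nuclear factor, was at 400, 223, 241 and 454 CPM, Ahr at 36.1, 30.6, 84.6 and 28.4 CPM, and Nfe2l2, which encodes Nrf2, at 89.2, 70.9, 239 (SD 327, n = 5) and 32.0 CPM, with Keap1 at 92.8, 50, 63.5 and 81.5 CPM. Of 8 Nrf2 targets outside the families, 2 were higher than FH at 3 h, 3 at 1 day, 4 at 2 days and 3 at 2 weeks, and 0 were lower at these times. Among them Srxn1 had means of 111 CPM in FH, 1554 CPM at 3 h, 1583 CPM at 1 day and 89.3 CPM at 2 weeks, Slc7a11 went from 0 to 247 CPM at 1 day, and Nqo1 had means of 1.73 to 7.85 CPM from FH to 2 weeks. Of 7 efflux transporters, 0 were called at 3 h, 2 were lower at 1 day, and 1 was higher and 3 lower at 2 weeks and in dediHeps.

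**Figure D4:**
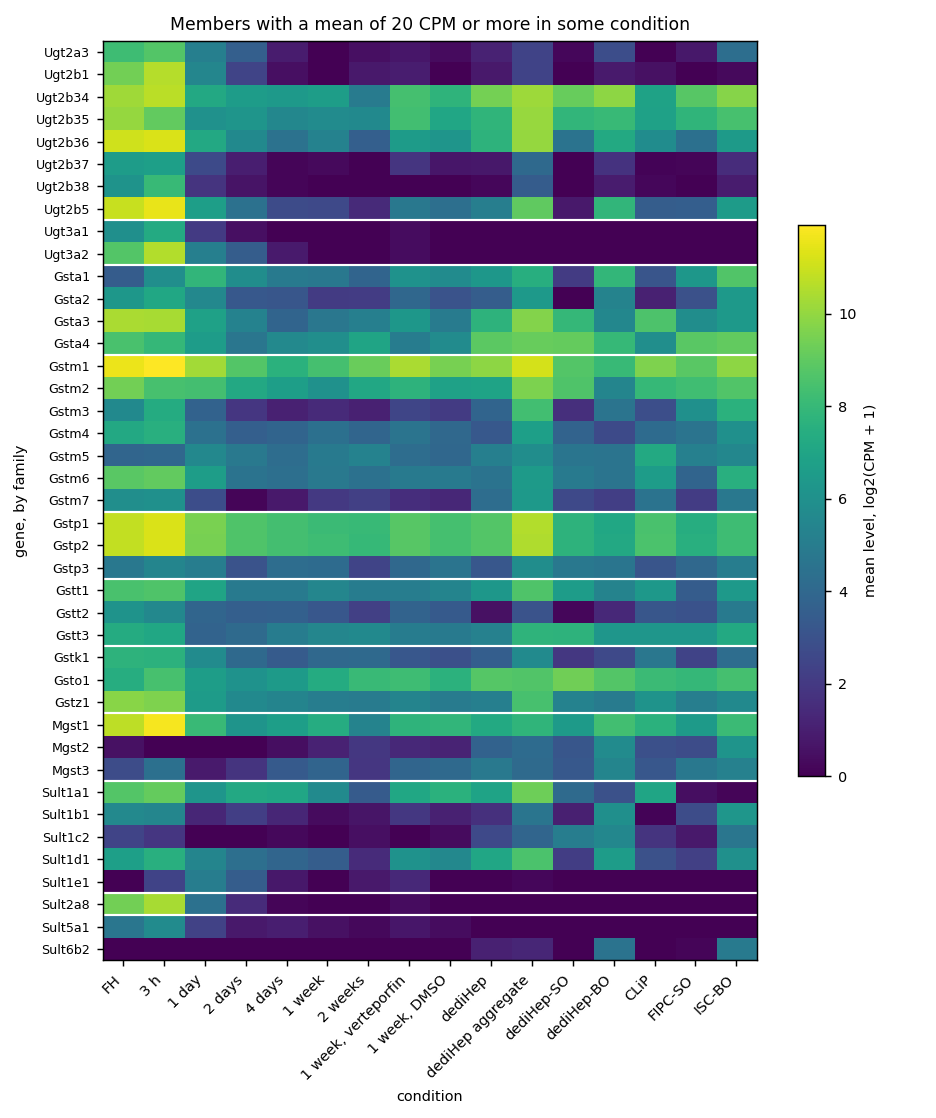
Heat map of log2 (mean CPM + 1) for the 41 members that reached a mean of 20 CPM in at least 1 condition, by family and over the 16 conditions. Brighter colours are higher levels. The brightest columns are FH and 3 h, and most UGTs and SULTs are near 0 from 4 days to 2 weeks. The column of aggregates is brighter than that of dediHeps for most members. Ugt3a1, Ugt3a2 and Sult2a8 had no count in either.

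Markers of other cells of the liver were measured beside these values. In FH libraries, macrophage markers summed to 48.5 to 194 CPM, endothelial markers to 183 to 317 CPM and stellate markers to 69.2 to 196 CPM. Intestinal epithelial markers were at 3.54 to 49.6 CPM in FH and at 57.6 to 1344 CPM in dediHeps. The part of these cells in the member levels was not tested.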

How the data were processed

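CEL-seq2 libraries were deposited by the authors as a table of UMI counts per Ensembl gene (46078 genes, 49 libraries), not normalised. Each molecule carries a 6-base identifier, so a count cannot exceed the number of such sequences. The submitters' processing notes name bcl2fastq 2.20, Bowtie2 2.3.1, HTSeq 0.6.0 and GRCm38, and the handling of reads that match several genes is not given in the sources used here. Symbols and coordinates came from GENCODE M21.

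Groups were taken from the sample labels. Genes passing filterByExpr (minimum count 10, minimum total 15) were tested with the quasi-likelihood F-test of edgeR 4.0.16 in R 4.3.3, with TMM scaling and Benjamini-Hochberg adjustment over all genes tested. The 7 time groups shared 1 fit, and other comparisons used their own groups. Calls needed an adjusted p under 0.1 and a log2 fold change beyond 2. DESeq2 1.42.0, RLE scaling, library totals, no filter, identifier correction, blocking and leaving out libraries were alternatives; library totals were added after seeing the data. The scripts were tested on simulated data.

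Named members had a mean of at least 20 CPM in some condition, the 3 smallest p-values of a comparison in each direction, or a call above FH; Sult2a1, the 6 members without a count and Gnmt, Glyat, Srxn1 and Slc7a11 were chosen with their values seen. The members and lists were chosen with earlier results of these data known. Replicates are separate samples by their labels, and p-values measure the spread between them. Of 54 replicate pairs none agreed within sampling noise (chi-square per degree of freedom 6.29 to 74.5). Aggregates and dediHeps of the same culture by label deviated together (correlations 0.178 to 0.332), and pairing them gave 19 calls, the number without it, though Gsta3 was lost (1.91). Intervals, at 95%, and the floor of 3 counts cover counting error only.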

Additional observations from a re-analysis of the deposited data

Results flagged for a closer look

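In groups of 4 or 5 libraries, 94 sets of values were examined for a library far from the others (Dixon's 95% limit), of which chance alone passes about 1 in 20, and 10 passed. In dediHeps these were Ugt2a3 (3.79 CPM in the highest library, next 0.907), Gstm6 (41.7 CPM, next 19.6), Gstz1 (96.6 CPM, next 23.3), Mgst2 (29.9 CPM, next 11.8) and the Sult2 sum (9.97 CPM, next 2.51). The highest library was the third for Gstm6, Mgst2 and the Sult2 sum and the fifth for Ugt2a3 and Gstz1. In ISC-BOs the fourth library was above the others for Ugt2b38 at 2.19 CPM (next 0.541) and Sult1b1 at 142 CPM (next 56.9), and below them for Gsto1 at 305 CPM (next 352). The first ISC-BO library stood apart for Sult1a1 at 0.541 CPM (others 0), and the third for Gsta2 at 45.3 CPM (next 99.1). The Sult1a1 value was a single count, and with the others at 0 any count passes this limit. Ugt2b38 also lay near the floor.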

How the results depend on the processing

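Of 305 member calls, 234 held under every alternative tried and 0 reversed. Calls lost numbered 47 with library totals, 7 with all 49 libraries in 1 fit, 7 without the low-count filter, 6 with the replicate block, 2 with DESeq2, 1 with identifier correction and 0 with RLE scaling. The number of members called at 3 h went from 3 to 5 with the replicate block and 8 at a log2 fold threshold of 1. For dediHep-BOs against ISC-BOs that threshold gave 12 in place of 6, and aggregates against FH had 22 in place of 14 without the filter. CLiPs against dediHeps had 3 in place of 6 with the replicate block and 11 with all libraries in 1 fit. In no other comparison did blocking move the count of members called by over 1.5 times, and it gave 10 in place of 9 for dediHep-SOs against dediHeps. DediHep-SOs and dediHeps also share cultures by label but did not deviate together (correlations −0.465 to 0.0283). Samples of the other comparisons were matched by title number, and whether equal numbers mark shared isolations is not stated (correlations −0.57 to 0.523). The column labels number the 3 h libraries differently from FH, so the block at 3 h may not join shared isolations.

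Leaving out each library gave 0 to 8 calls at 3 h (0 without FH 2, 1 without FH 3, 8 without FH 1), 27 to 29 at 1 day, 34 to 35 at 2 days, 32 to 34 at 4 days, 32 to 35 at 1 week and 32 to 34 at 2 weeks. It gave 26 to 33 for dediHeps and 14 to 18 for aggregates against FH, 12 to 19 for aggregates against dediHeps (12 without aggregate 1), 7 to 10 for dediHep-SOs against dediHeps and 9 to 13 against FIPC-SOs. It gave 5 to 7 for dediHep-BOs, 21 to 25 for ISC-BOs, 3 to 7 for CLiPs against dediHeps (3 without CLiP 1 or CLiP 3), 26 to 32 for CLiPs against FH and 0 to 1 for verteporfin (1 without DMSO 1). Calls that single libraries carried were Gsta2, Gstm2 and Sult1b1 in aggregates against dediHeps (log2 fold changes of 1.42, 1.06 and 1.55 without aggregate 1) and Gstp3 (1.66 without aggregate 3). At 1 day they were Mgst3 (−0.56 without FH 1) and Sult5a1 (−1.21 without FH 3). Family sums moved by more than their SD in 27 of 192 cases without TMM factors and in 26 of 192 with identifier correction, and the cause was not tested. The 23 members with under 100 counts in all libraries could show only very large differences at this depth.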
